A study of Mus musculus with 4 samples.

Results

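Genes that mark the segments of the kidney nephron were measured by RNA-seq in reconstituted ovaries (rOvaries), which had grown as grafts under the kidney capsule of the recipient mice. The 39 genes were chosen by symbol as known genes of a segment, and all 39 were found among the 54021 gene symbols of the count table. They are 1 podocyte gene (Nphs1), 28 proximal tubule genes (Kap, Slc34a1, Slc22a6, Slc22a8, Slc22a12, Slc22a2, Slc22a7, Slc5a2, Slc5a8, Slc5a10, Slc5a12, Slc6a19, Slc3a1, Slc7a9, Slc4a4, Slc13a3, Slc17a1, Slc17a3, Slc27a2, Lrp2, Cubn, Aqp1, Miox, Acsm2, Fbp1, Pck1, Gatm and Folh1), 4 genes of the thick ascending limb (Umod, Slc12a1, Cldn16 and Egf), 5 of the distal tubule (Slc12a3, Pvalb, Calb1, Kl and Fxyd2) and 1 of the collecting duct (Aqp2).

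Each rOvary was made from primordial germ cells and gonadal somatic cells of female actin-GFP fetuses on C57BL/6, mixed at 1 to 6, and was grafted into a C57BL/6 G2 Terc-/- female, 2 to 3 months old, whose own ovaries had been removed on both sides. Terc encodes the RNA of telomerase, and generation 2 animals without it have shortened telomeres, in the treated and the control recipients alike. The treated recipients drank INK128, an inhibitor of the kinase mTOR, for which the labels give 0.75 uM per g of body weight and the methods 30 uM, and the controls received none. Polyadenylated RNA was sequenced from 2 INK128-treated rOvaries (replicates 1 and 2) and 2 control rOvaries (replicates 1 and 3) collected 4 weeks after transplantation. The sources used here do not give whether host kidney was trimmed from the grafts, or whether each library came from 1 graft or several.

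The nephron filters blood at the podocytes of the glomerulus and then recovers most of the filtered salt, glucose, amino acids, phosphate and protein in the proximal tubule. The thick ascending limb and the distal tubule reabsorb further sodium, calcium and magnesium, and the collecting duct sets the water content of the urine. Many of the transporters involved are made in the kidney at far higher levels than in other organs, whereas Aqp1, Egf, Fxyd2, Slc4a4, Gatm, Pck1 and Kl are also used by other tissues or in several segments.

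Library totals ran from 19130209 to 23029089 counts, and a floor of 3 counts corresponded to 0.127 to 0.161 CPM (counts scaled to library size with TMM factors), which covers counting error only. The INK128 pair correlated at 0.98 over log2 CPM of 11758 genes, and the control pair at 0.806 (Pearson, across genes, with no test). Both control libraries stood apart in markers of other kinds. Control replicate 1 held 1021 counts summed over 4 Y-linked genes (Uty, Kdm5d, Ddx3y, Eif2s3y), against 2, 0 and 0 in INK128 replicates 1 and 2 and control replicate 3, although the labelled gonads and recipients were female. Control replicate 3 held few oocyte transcripts, with a sum of 27.0 CPM over 10 oocyte markers against 837 in control replicate 1 and 1187 and 872 in the INK128 libraries. The count of genes called by edgeR and the separation of the groups are therefore also given without each control. Nothing states whether the libraries of a group came from separate recipients, so p-values measure only the spread between these samples.

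Nephron transcripts were lower in the INK128-treated rOvaries than in the controls. Summed over the 39 genes they made up 243 and 415 CPM in INK128 replicates 1 and 2, and 1798 and 3729 CPM in control replicates 1 and 3. The control mean was 2764 ± 1366 CPM (SD, n = 2) and the INK128 mean 329 ± 122 CPM (SD, n = 2), an 8.41-fold difference that was 5.47-fold without control replicate 3 and 11.3-fold without control replicate 1. Both INK128 libraries lay below both controls in 34 of the 39 genes, above both in 1 (Nphs1), and the groups overlapped in 4 (Slc22a7, Slc5a10, Cldn16 and Pvalb). Over all genes with a mean CPM above 1, 35.3% had both INK128 libraries below both controls. Without control replicate 1 the count was 38 of 39, beside 46.9% of those genes, and without control replicate 3 it was 34, beside 46.9%. In bulk RNA, fewer cells of a type and less RNA per cell cannot be told apart.

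**Figure D1:**
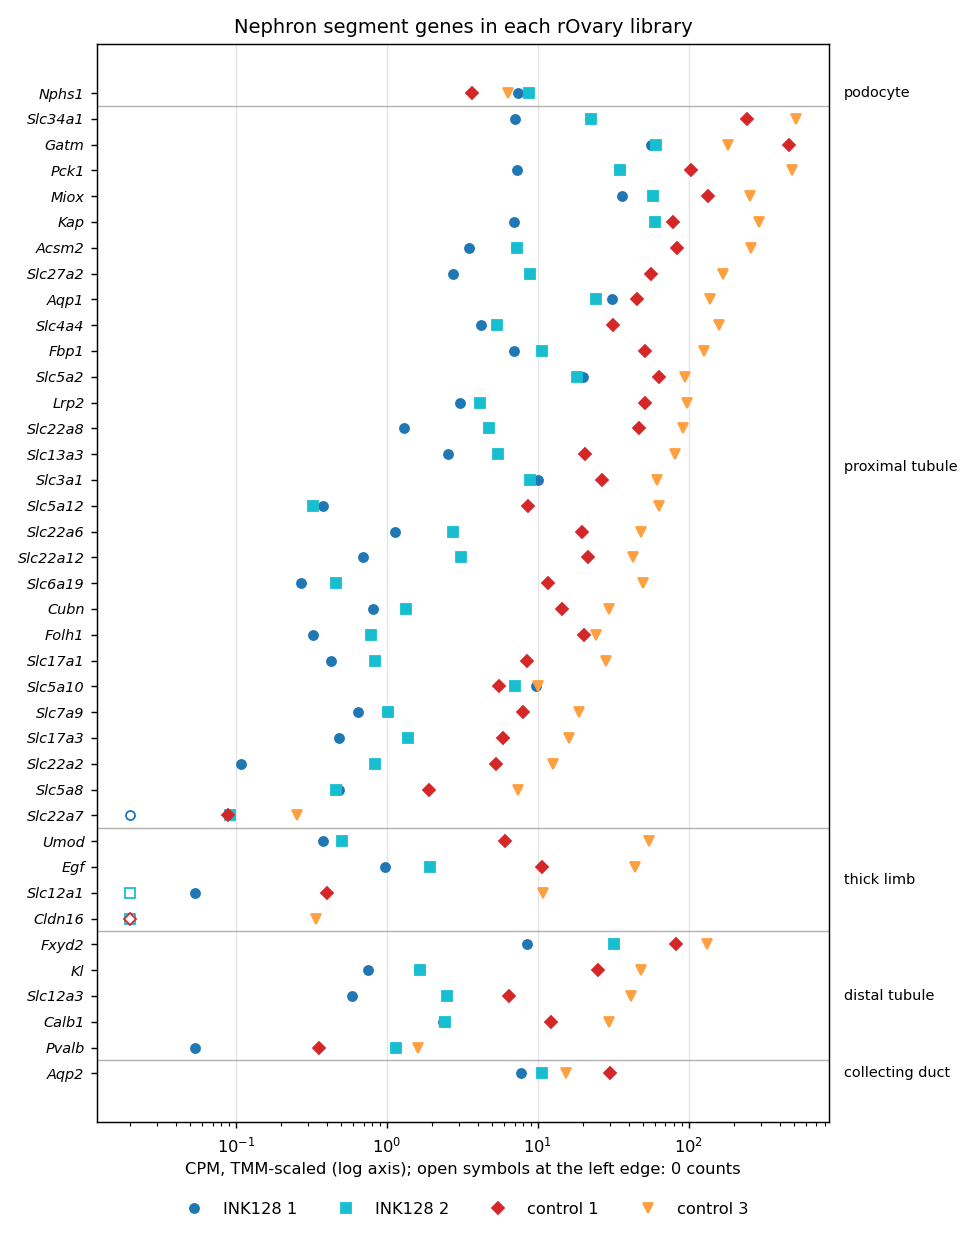
CPM of the 39 nephron genes on a log axis, with 1 row a gene grouped by segment and 1 symbol for each of the 4 libraries, open where the count was 0. Control replicates 1 and 3 stood above both INK128 libraries in 34 of the 39 rows, and control replicate 3 above control replicate 1 in most of them.

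With a mean CPM above 10, 28 of the 39 genes entered the main test (edgeR quasi-likelihood, Benjamini-Hochberg adjustment over 11758 genes, with calls where the adjusted p was below 0.05 and the change over 1.5-fold). Of these, 12 were called lower and none higher with INK128, where 3.19% of all tested genes were called lower and 3.18% higher. The 12 were Slc34a1, Slc22a6, Slc22a8, Slc5a2, Slc6a19, Lrp2, Cubn, Acsm2, Fbp1 and Folh1 of the proximal tubule and Calb1 and Kl of the distal tubule. DESeq2 called 27 of the 28 lower, all but Kap, against a background of 15.1% of genes. In all 28 both INK128 libraries lay below both controls, as they did in 34.0% of all tested genes, but a gene low in treatment could enter the test through its controls alone, so this count is not evidence by itself. The median log2 fold change of the 28 was −4.09, with a range from −6.66 to −1.30, beside a median of −0.03 over all tested genes. The same filter bears on the counts called and on this median. The median was −2.06 over the 4 genes with CPM above 10 in all 4 libraries. It was −2.92 over the 28 without control replicate 3.

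The edgeR calls lay close to the threshold. The adjusted p of the 28 genes ran from 0.0464 to 0.200, and 25 of them were under 0.1. Lowering the filter to a mean CPM above 1 brought 36 of the 39 into the test and left 0 called, as for 0.00% of all 17631 genes, although 5797 genes had an unadjusted p under 0.05. In 34 of those 36 the INK128 libraries were both below the controls, against the same 35.3% of that wider set. Without control replicate 1 or without control replicate 3, 27 of the 28 were called lower by edgeR, beside 23.2% and 21.4% of all tested genes in those fits, and without either INK128 library none was, the single sample left in a group being assumed to vary like the other group. The log2 fold changes of the 12 called genes ran from −5.15 to −1.74 without control replicate 3, which moved 7 of them and 19 of all 28 by over 1.5 times, and from −6.81 to −2.00 without INK128 replicate 2, which moved 6.

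**Figure D2:**
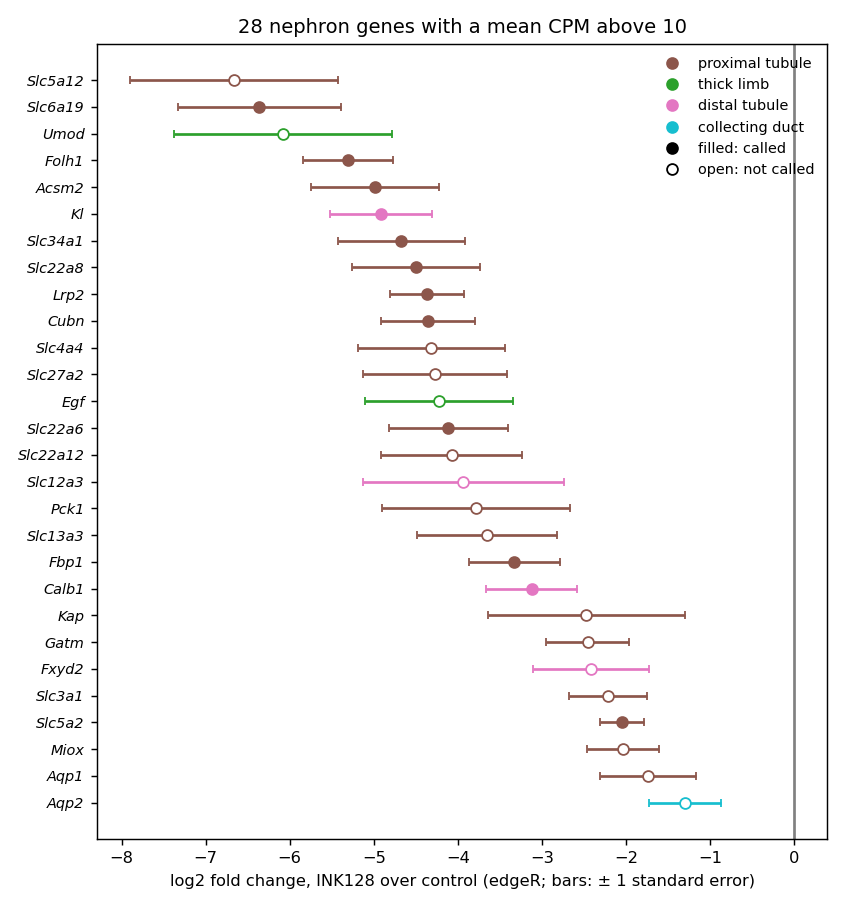
Log2 fold change of INK128 over control from edgeR for the 28 nephron genes with a mean CPM above 10, with bars of 1 standard error, coloured by segment and filled where called. All 28 lay below 0, from −6.66 for Slc5a12 to −1.30 for Aqp2, and the called genes were not those with the lowest values alone.

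Promoters were read for these genes from RefSeq (build GRCm38.p6), each window holding 250 bases before and 50 after a start site, and 34 of the 39 genes matched the table (not Slc22a7, Slc5a2, Slc5a12, Calb1 or Fxyd2). The motif searched first was GTTAATNAT, part of the palindromic site of HNF1 factors, which regulate tubule transporter genes. None of the 34 held it on either strand, as against 0.94% of 27025 genes. After that count was seen, its first 6 letters, GTTAAT, were searched alone on both strands. These letters were present in 10 of the 34 genes (29.4%) and in 9 of the 25 matched proximal tubule genes (36%), as against 8.24% of all genes. By promoter, since a gene can have several, they were in 10 of the 41 windows of these genes (24.4%) and in 7.1% of all windows of that length. The 10 were Acsm2, Folh1, Miox, Pck1, Slc22a6, Slc22a8, Slc34a1, Slc3a1, Slc5a10 and Umod. The letters CAAAGTCCA, of the kind bound by HNF4 factors, occurred in Slc3a1 alone, and TATAAA in 6 of the 34 (17.6%, against 15.7% of all genes). Such a match describes the letters and is not evidence of a bound site. The 4 promoters below belong to the genes with the highest mean CPM among those that held GTTAAT and passed a mean CPM of 10. In all 4 genes both INK128 libraries lay below both controls, as in all 28 genes above that filter. Capitals mark GTTAAT or its reverse complement, at positions −89 to −84 and −61 to −56 from the start of Slc34a1, −192 to −187 of Pck1, −142 to −137 of Miox and −166 to −161 of Acsm2.
Slc34a1 (chr13:55399398-55399697, + strand): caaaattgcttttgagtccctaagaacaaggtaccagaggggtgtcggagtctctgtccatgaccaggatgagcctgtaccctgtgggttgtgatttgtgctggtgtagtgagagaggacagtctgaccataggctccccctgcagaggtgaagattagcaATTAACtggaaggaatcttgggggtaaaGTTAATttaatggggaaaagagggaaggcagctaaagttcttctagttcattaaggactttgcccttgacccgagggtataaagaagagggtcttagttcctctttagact
Pck1 (chr2:173152823-173153122, + strand): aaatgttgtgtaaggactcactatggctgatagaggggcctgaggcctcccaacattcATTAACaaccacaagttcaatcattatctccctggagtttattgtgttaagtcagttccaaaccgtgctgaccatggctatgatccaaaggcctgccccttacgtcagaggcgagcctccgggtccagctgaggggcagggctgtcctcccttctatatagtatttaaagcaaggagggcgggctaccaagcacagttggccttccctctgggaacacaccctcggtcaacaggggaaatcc
Miox (chr15:89334223-89334522, + strand): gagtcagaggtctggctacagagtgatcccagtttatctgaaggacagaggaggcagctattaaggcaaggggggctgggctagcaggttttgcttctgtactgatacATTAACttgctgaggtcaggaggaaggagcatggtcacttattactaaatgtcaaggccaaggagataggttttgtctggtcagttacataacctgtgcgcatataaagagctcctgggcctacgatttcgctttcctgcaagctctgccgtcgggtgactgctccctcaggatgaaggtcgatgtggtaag
Acsm2 (chr7:119554090-119554389, + strand): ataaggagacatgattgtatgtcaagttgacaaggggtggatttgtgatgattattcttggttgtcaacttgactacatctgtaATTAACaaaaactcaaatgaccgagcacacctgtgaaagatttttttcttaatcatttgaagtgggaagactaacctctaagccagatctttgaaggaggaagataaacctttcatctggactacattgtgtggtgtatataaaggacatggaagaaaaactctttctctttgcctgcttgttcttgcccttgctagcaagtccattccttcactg

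The proximal tubule holds 28 of the 39 listed genes, and its share of the reads depends on that. These genes summed to 214 and 353 CPM in the INK128 libraries and 1621 and 3344 CPM in control replicates 1 and 3, or 85.2% to 90.2% of the sum over all 39 genes in each library. The control mean was 8.75-fold above the INK128 mean, and 5.71-fold above it without control replicate 3. Of its 21 tested genes, edgeR called 10 lower and did not call 11, and DESeq2 called 20 lower. Over all tested genes, 3.19% and 15.1% were called lower by each tool. Genes high in the controls alone could enter the test, so these counts are not evidence by themselves.

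Among transporters of phosphate and organic anions, Slc34a1, Slc22a6 and Slc22a8 were called. Slc34a1, the sodium-phosphate cotransporter of the brush border (chr13:55398187-55415592, mm10), had 7.03 and 22.4 CPM in INK128 replicates 1 and 2 and 241 and 510 CPM in control replicates 1 and 3. It fell by 4.67 on the log2 scale (SE 0.76, adjusted p = 0.0475, edgeR), and its promoter holds the letters GTTAAT in both orientations. Slc22a6 and Slc22a8 encode the basolateral uptake carriers for organic anions. Slc22a6 stood at 1.13 and 2.76 CPM with INK128 and at 19.6 and 48.2 CPM in controls, and Slc22a8 at 1.29 and 4.74 against 46.6 and 91.0 CPM. Both were called, with log2 fold changes of −4.11 and −4.50 (SE 0.71 and 0.76, adjusted p = 0.0486 for each, edgeR). Slc22a12, the urate exchanger, had 0.698 and 3.08 CPM against 21.5 and 42.8 CPM, and missed the threshold with a log2 fold change of −4.07 (SE 0.84, adjusted p = 0.0543, edgeR). About 30.1% of its exon length overlaps Nrxn2, and the library kit did not keep strand, so reads there could belong to either gene. Slc22a7, an organic anion carrier, had 0 and 2 counts against 2 and 6 counts, and its groups overlapped at that depth.

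Glucose and monocarboxylate carriers divided into a called gene, very low genes and a gene with no separation. Slc5a2, the main glucose cotransporter of the early proximal tubule, had 19.8 and 18.1 CPM with INK128 and 63.2 and 93.9 CPM in controls. With the smallest standard error of the 28 tested genes, it fell by 2.05 on the log2 scale (SE 0.26, adjusted p = 0.0464, edgeR). A share of 20.6% of its exons overlaps BC017158. Slc5a12, a lactate cotransporter, had 0.376 and 0.322 CPM against 8.54 and 63.0 CPM. Its log2 fold change of −6.66 was the lowest of the 28 and was not called (SE 1.23, adjusted p = 0.0507, edgeR), and its controls lay 7.37-fold apart. Without control replicate 3 it was −4.60, and Folh1 was then lowest at −5.15. Slc5a10, a mannose and fructose cotransporter, overlapped between the groups, with 9.72 and 7.08 CPM against 5.49 and 9.95 CPM (log2 fold change 0.17, SE 0.44, adjusted p = 0.797 in the wider edgeR test). Its exons overlap Fam83g and Grap over 16.8% of their length.

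Among carriers of amino acids, bicarbonate and organic acids, only Slc6a19 passed the edgeR threshold. Slc6a19, which takes up neutral amino acids, had 0.268 and 0.460 CPM with INK128 and 11.7 and 49.6 CPM in controls, a log2 fold change of −6.36 (SE 0.96, adjusted p = 0.0464, edgeR). Slc3a1, the heavy subunit of the cystine transporter, had 10.1 and 8.88 against 26.6 and 61.2 CPM (log2 fold change −2.21, adjusted p = 0.0553, edgeR). Its exons overlap Prepl over 26.5% of their length, and its light-chain partner Slc7a9, which overlaps no counted gene, had 0.644 and 1.01 CPM in the INK128 libraries. Slc4a4, the bicarbonate exit route of the basolateral side, had 4.19 and 5.34 against 31.6 and 159 CPM (log2 fold change −4.32, adjusted p = 0.0536, edgeR). Slc13a3, a dicarboxylate carrier, had 2.52 and 5.47 against 20.4 and 80.9 CPM (log2 fold change −3.66, adjusted p = 0.0610, edgeR). In both genes the controls spread further than the INK128 libraries. Slc27a2, which carries and activates fatty acids, had 2.74 and 8.88 against 56.2 and 169 CPM (log2 fold change −4.27, adjusted p = 0.0526, edgeR).

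Both receptors for filtered protein were called. Lrp2 encodes megalin and Cubn encodes cubilin, which together take up albumin and vitamin carriers from the filtrate. Lrp2 had 3.06 and 4.14 CPM with INK128 and 51.1 and 97.7 CPM in controls, a log2 fold change of −4.37 (SE 0.44, adjusted p = 0.0464, edgeR). Cubn had 0.805 and 1.33 CPM against 14.4 and 29.8 CPM, a log2 fold change of −4.35 (SE 0.56, adjusted p = 0.0464, edgeR). Aqp1, the water channel of the proximal tubule that endothelium and red cell precursors also make, had 30.9 and 24.3 CPM against 45.6 and 138 CPM and was not called (log2 fold change −1.74, SE 0.57, adjusted p = 0.107, edgeR).

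Of the enzymes of the proximal tubule, Acsm2, Fbp1 and Folh1 were called by edgeR. Acsm2, a mitochondrial acyl-CoA synthetase, had 3.49 and 7.27 CPM with INK128 and 83.0 and 259 CPM in controls, and fell by 4.99 on the log2 scale (SE 0.76, adjusted p = 0.0464, edgeR). Fbp1, an enzyme of gluconeogenesis, had 6.98 and 10.6 against 51.0 and 126 CPM and fell by 3.33 (SE 0.54, adjusted p = 0.0475, edgeR). Pck1, which opens the same pathway, had 7.30 and 34.9 against 103 and 482 CPM and was not called (log2 fold change −3.79, SE 1.12, adjusted p = 0.0903, edgeR). For Pck1 the libraries of each group differed by more than 4-fold. Folh1, a carboxypeptidase of the brush border, had 0.322 and 0.782 against 20.2 and 24.3 CPM, with the closest pair of control values of the 28 genes, and fell by 5.30 (SE 0.54, adjusted p = 0.0464, edgeR). Miox, the first enzyme of inositol breakdown, had 35.9 and 58.1 against 133 and 252 CPM (log2 fold change −2.04, adjusted p = 0.0551, edgeR). Gatm, which makes the precursor of creatine, had 56.3 and 60.1 against 459 and 181 CPM (log2 fold change −2.46, adjusted p = 0.0526, edgeR). It was the only proximal tubule gene that was higher in control replicate 1 than in control replicate 3. Kap, an androgen-regulated protein of the proximal tubule, varied most of the 28 between the INK128 libraries, with 6.98 and 59.7 CPM against 79.0 and 292 CPM (log2 fold change −2.47, SE 1.17, adjusted p = 0.200, edgeR).

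Per kilobase of exon, the leading genes differed between libraries. The length joins all exons annotated for a gene, which can exceed the transcript present, so orders between genes are approximate. In control replicate 3 Kap led at 412 CPM per kb, followed by Miox at 153, Pck1 at 140 and Slc34a1 at 109. In control replicate 1 Gatm led at 153 CPM per kb, followed by Kap at 112, Miox at 80.5 and Slc34a1 at 51.5. In INK128 replicate 1 the leading genes were Miox at 21.8, Gatm at 18.8 and Aqp1 at 11.7, and in INK128 replicate 2 they were Kap at 84.4, Miox at 35.2 and Gatm at 20.0. Neighbours in these orders rest on 1 library each and were not tested against each other. Slc34a1 was among the leading 4 genes of each control and not among the leading 5 of either INK128 library.

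**Figure D3:**
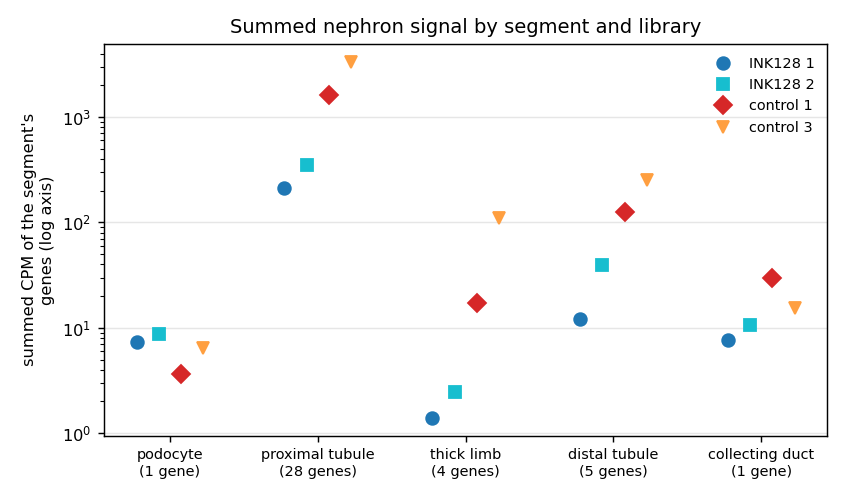
Summed CPM of the nephron genes of each segment in each library, on a log axis. The proximal tubule sum stood between 1621 and 3344 CPM in the controls and between 214 and 353 CPM with INK128, the thick limb sum reached 110 CPM in control replicate 3, and Nphs1, the only podocyte gene, was higher in both INK128 libraries than in both controls.

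The thick ascending limb was low with INK128 and uneven between the controls. Its 4 genes summed to 1.40 and 2.44 CPM in the INK128 libraries, 17.1 in control replicate 1 and 110 in control replicate 3. Umod (chr7:119462711-119479282, mm10) encodes uromodulin, the main protein of normal urine. It had 0.376 and 0.506 CPM with INK128 and 6.07 and 54.7 CPM in controls, which lay 9.02-fold apart, and its log2 fold change of −6.08 was not called (SE 1.30, adjusted p = 0.0562, edgeR). Part of Umod, 19.5% of its exon length, overlaps Gm44588. Egf, the precursor of epidermal growth factor, had 0.966 and 1.93 against 10.7 and 43.9 CPM (log2 fold change −4.22, SE 0.87, adjusted p = 0.0546, edgeR). Slc12a1, the furosemide-sensitive cotransporter, had 1 and 0 counts with INK128, 9 counts in control replicate 1 and 258 counts in control replicate 3. Cldn16, a tight junction protein for magnesium, had 8 counts in control replicate 3 and 0 in the other 3 libraries, so a difference between groups was not detectable at this depth. The control mean was 33.1-fold above the INK128 mean, and 8.94-fold above it without control replicate 3. The sum was 6.41-fold higher in control replicate 3 than in control replicate 1, where the proximal tubule sum was 2.06-fold higher.

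Distal tubule genes summed to 12.2 and 39.5 CPM with INK128 and to 126 and 254 CPM in control replicates 1 and 3, a 7.35-fold difference of the means that was 4.89-fold without control replicate 3, 4.81-fold without INK128 replicate 1 and 15.5-fold without INK128 replicate 2. Kl, which encodes Klotho, the coreceptor for the phosphate-regulating hormone of bone, had 0.751 and 1.66 CPM against 25.0 and 48.5 CPM, and fell by 4.92 on the log2 scale (SE 0.60, adjusted p = 0.0464, edgeR). Calb1, a calcium-binding protein, had 2.36 and 2.44 against 12.2 and 29.7 CPM and fell by 3.12 (SE 0.54, adjusted p = 0.0487, edgeR). Fxyd2 (chr9:45399669-45410278, mm10), the gamma subunit of the sodium pump, was the most abundant of the 5. It had 8.48 and 31.8 against 82.5 and 133 CPM and was not called (log2 fold change −2.42, SE 0.69, adjusted p = 0.0855, edgeR). Slc12a3, the thiazide-sensitive cotransporter, had 0.590 and 2.48 against 6.42 and 41.2 CPM and was not called either (log2 fold change −3.94, SE 1.20, adjusted p = 0.0953, edgeR). Pvalb, a calcium buffer of the early distal tubule, had 1 and 25 counts against 8 and 38 counts, and its groups overlapped.

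The collecting duct and the podocyte were each represented by 1 gene. Aqp2 (chr15:99579055-99584547, mm10), the vasopressin-regulated water channel, had 7.73 and 10.6 CPM with INK128 and 29.8 and 15.3 CPM in control replicates 1 and 3. Its log2 fold change of −1.30 (SE 0.43, adjusted p = 0.109, edgeR) was the smallest of the 28 tested genes, although DESeq2 called it (adjusted p = 0.0385). With Gatm it was 1 of 2 genes lower in control replicate 3 than in control replicate 1. Nphs1 (chr7:30458315-30487223, mm10) encodes nephrin of the slit diaphragm. It had 7.41 and 8.79 CPM with INK128 and 3.67 and 6.37 CPM in controls, so it was the only gene of the 39 with both INK128 libraries above both controls. The difference was not called (log2 fold change 0.74, SE 0.42, adjusted p = 0.279 in the wider edgeR test), and 11.8% of its exon length overlaps Nphs1os and Rps12-ps4.

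The remaining genes had mean CPM values between 1 and 10 and were tested in the wider set and with no filter. Slc22a2, Slc5a8, Slc7a9, Slc17a1 and Slc17a3, which carry organic cations, monocarboxylates, cystine and urate or phosphate, had 0.107 to 1.38 CPM in the INK128 libraries and 1.90 to 28.1 CPM in the controls. Both INK128 libraries lay below both controls in all 5, beside 35.3% of all genes with a mean CPM above 1. Their log2 fold changes ran from −4.78 to −3.23 and their adjusted p from 0.0558 to 0.0843 in the wider edgeR test, in which no gene was called. With no filter on low counts edgeR called all 5 lower, with adjusted p from 0.00184 to 0.0225. That fit called 1953 of all 31483 genes lower. Slc12a1 had an adjusted p of 0.10 in the wider test and 0.0107 with no filter (edgeR), and its fold change is not given because it rests on 1 count in the INK128 libraries.

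The 2 libraries of a group differed in level across most of the list. Of 37 genes over the floor of 3 counts in both controls, 35 were higher in control replicate 3 than in control replicate 1, with a median ratio of 2.46 and a range from 0.395 to 27.3. Among the 28 tested genes, 18 were over 2 times higher in control replicate 3, against 6.73% of all 11758 genes. Of 34 genes over the floor in both INK128 libraries, 28 were higher in INK128 replicate 2 than in INK128 replicate 1, with a median ratio of 1.69 and a range from 0.729 to 8.55. Among the 28, 13 were over 2 times higher in INK128 replicate 2, against 0.910% of all genes. The 28 entered by a mean CPM that the controls could carry alone, and only 4 had CPM above 10 in all 4 libraries. Ratios vary more at low counts, so the share among the 28 and that over all genes are not directly comparable. Each ratio compares 2 libraries, with an interval that covers counting error only, and each percentage is a description of those libraries.

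**Figure D4:**
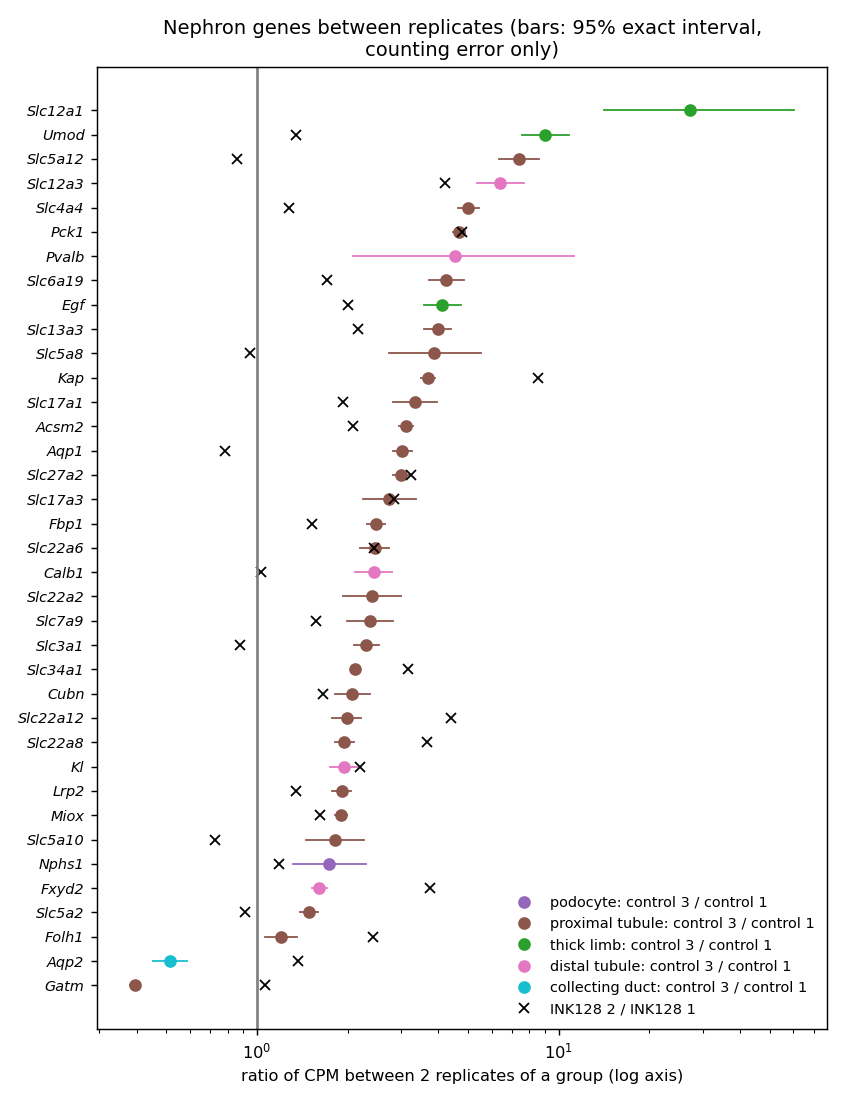
Ratio of control replicate 3 to control replicate 1 for the 37 nephron genes over 3 counts in both, as dots coloured by segment on a log axis with 95% exact intervals for counting error, and of INK128 replicate 2 to INK128 replicate 1 as crosses. The proximal tubule genes had a median of 2.46, the 3 thick ascending limb genes lay from 4.12 to 27.3, and Aqp2 lay at 0.514.

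**Figure D5:**
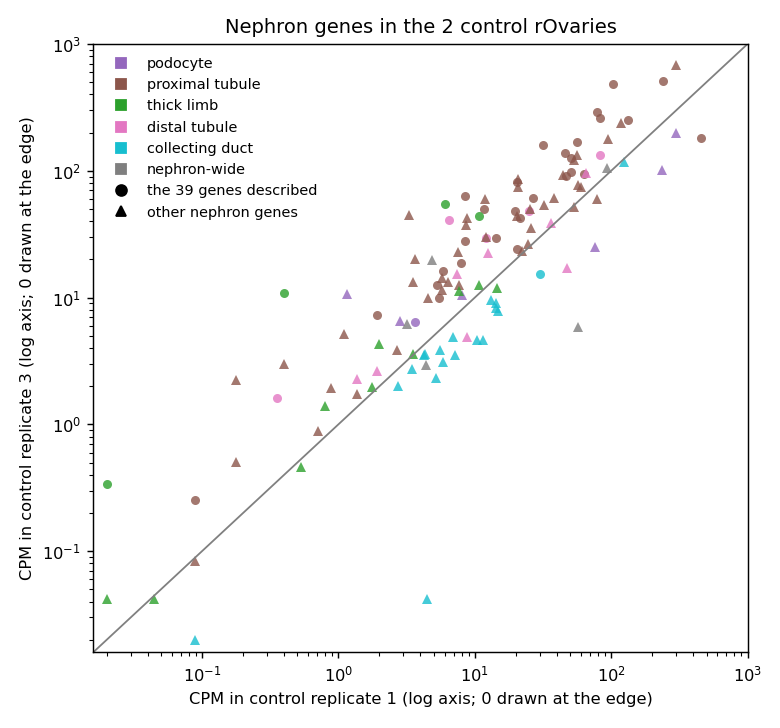
CPM in control replicate 3 against CPM in control replicate 1, on log axes with the line of equality and coloured by segment, for the 39 nephron genes (circles) and 88 further nephron genes (triangles). Of the 37 circles over the floor in both, 35 lay above the line and Gatm and Aqp2 below it, as did the 16 collecting duct triangles over the floor.

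The controls were uneven to different degrees across the segments. The median ratio of control replicate 3 to control replicate 1 was 2.46 over 27 proximal tubule genes, 9.02 over 3 thick limb genes and 2.44 over 5 distal tubule genes, and the single ratios of Nphs1 and Aqp2 were 1.73 and 0.514. A second list of 88 nephron genes, none of them a member of the first, was read in the same way. Its 16 collecting duct genes over the floor were all higher in control replicate 1, with a median ratio of 0.665, while 38 of its 40 proximal tubule genes were higher in control replicate 3, with a median ratio of 2.18. The other segments of that list had median ratios of 1.14 over 8 thick limb genes, 1.42 over 8 distal tubule genes and 0.989 over 6 podocyte genes. Elf5, a collecting duct transcription factor singled out after its values were seen, had 101 counts in control replicate 1, 1 in control replicate 3 and 0 in both INK128 libraries. No segment difference was tested, as each ratio rests on 1 library against another.

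Of the 88 further nephron genes, 34 had a mean CPM above 10, and 8 were called lower and 1 higher by edgeR. Their median log2 fold change was −3.05. Beside the 8, 3.19% of all tested genes were called lower. DESeq2 called 24 of the 34 lower and 2 higher, beside 15.1% of all genes called lower. These counts depend on the same filter as those of the first list. Both INK128 libraries lay below both controls in 72 of the 88, and in 65 of the 76 with a mean CPM above 1, beside 35.3% of all genes at that level. Among 24 tested proximal tubule genes 6 were called lower and 1 higher. Agt, the angiotensin precursor, which liver and other tissues also make, was higher with INK128 at 229 and 342 against 78.7 and 60.3 CPM, and was the gene called higher (log2 fold change 2.04, adjusted p = 0.0464, edgeR). Both INK128 libraries lay above both controls in 3 of the 88, Agt, Hsd11b2 and Dpep1. Dpep1, a dipeptidase of the brush border named after its values were seen, had 130 and 151 against 57.4 and 77.9 CPM and was called higher by DESeq2 but not by edgeR (log2 fold change 1.05, adjusted p = 0.0562, edgeR). Ass1, of arginine synthesis, was not called (log2 fold change −1.47, adjusted p = 0.0741, edgeR).

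The same list held genes of the other segments. None of 3 tested podocyte genes was called by edgeR, while DESeq2 called 2 of them lower (Podxl and Clic5). The most abundant were Synpo, Podxl and Clic5, with log2 fold changes of −0.38, −2.14 and −3.21 (adjusted p = 0.328, 0.0569 and 0.0516, edgeR), although Podxl and Clic5 are also made by other cells. No thick limb gene reached the filter, and 9 of the 10 genes of that list, Kcnj1 and Cldn10 among them, were lower in both INK128 libraries, beside 35.3% of all genes with a mean CPM above 1. Of the distal list, led by Klk1, Wnk4 and S100g, S100g was called (log2 fold change −4.20, adjusted p = 0.0464, edgeR). Of the collecting duct list, led by Hsd11b2, Atp6v1b1 and Scnn1a, 16 of 18 genes were lower in both INK128 libraries, beside the same 35.3%. Hsd11b2, the only one tested, was higher in both and was not called (log2 fold change 0.54, adjusted p = 0.0928, edgeR). Among genes shared along the nephron, led by Cdh16, Pax8 and Ren1, the kidney cadherin Cdh16 was called, with 2.90 and 7.96 CPM against 93.7 and 106 CPM (log2 fold change −4.19, adjusted p = 0.0464, edgeR). Pax8 reached 57.4 CPM in control replicate 1 but 5.90 in control replicate 3, the opposite order to most proximal tubule genes.

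Markers of other cell types also differed between libraries, and their part in the result was not tested. Oocyte markers were higher in both INK128 libraries than in both controls in 8 of 10, as were 34.5% of all genes with a mean CPM above 10, and the list was led by Gdf9 with 454 and 264 CPM against 256 and 7.13 CPM. The 7 granulosa markers, led by Inha, summed to 5868 and 7684 CPM with INK128 and 2996 and 4713 CPM in controls, but 3 of the 7 were higher in both INK128 libraries and 4 overlapped. Without Inha their sums overlapped, at 1802 and 1791 against 1316 and 1855 CPM. The 7 immune markers, led by Cd74, were lower in both INK128 libraries in 5, beside 34.0% of all genes with a mean CPM above 10, with sums of 319 and 274 against 658 and 929 CPM. Adrenal cortex markers, led by Cyp21a1, summed to 38.2 and 115 CPM with INK128 and 1.28 and 4.55 CPM in controls, and adipocyte markers, led by Plin1, to 33.0 and 44.6 against 3.05 and 15.5 CPM. The adipocyte sum was Plin1 almost alone, since Adipoq, Lep, Ucp1 and Cidec were at or under the floor in all 4 libraries. The groups overlapped in all 4 oviduct markers. Foxj1, which leads that list, had 2.95 and 2.76 CPM with INK128 and 43.7 and 2.23 CPM in controls, and the others summed to 12.2 and 5.01 against 17.5 and 20.5 CPM.

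Several proximal tubule enzymes are also made in liver and gut, whose markers were read as well. The 10 hepatocyte markers, led by Ahsg, summed to 7.89 and 11.0 CPM with INK128 and 6.11 and 7.55 CPM in controls, with Cyp3a11 at 0 in every library. Of the 10, 1 (Ahsg) was higher in both INK128 libraries, 3 (Alb, Apoh and Fgb) were lower in both and 6 overlapped. Without Ahsg the sums were 1.45 and 2.39 CPM with INK128 and 4.25 and 6.49 CPM in controls. Their part in the result was not tested. The 7 intestinal markers summed to 47.7 and 57.0 against 58.6 and 17.1 CPM, nearly all of it Apoa4, and Fabp2, Alpi and Cdx1 were at 0 in every library. Leaving out Aqp1, Egf, Fxyd2, Slc4a4, Gatm, Pck1 and Kl, the summed nephron level was 134 and 255 CPM with INK128 and 1041 and 2544 CPM in control replicates 1 and 3, a 9.23-fold difference that was 5.36-fold without control replicate 3.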

How the data were processed

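Reads were trimmed with Trimmomatic, aligned to mm10 with HISAT2 and assigned to genes with featureCounts by the authors, who named the annotation RefGene. Tool versions are not given in the sources used here. For the 4 libraries the authors deposited unnormalized, unpooled counts by gene symbol. Every column was matched to its library by name.

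Counts were scaled with TMM factors and tested with edgeR 4.0.16 (quasi-likelihood F-test, both groups in 1 fit, no covariates) in R 4.3.3, with Benjamini-Hochberg adjustment over all genes with a mean CPM above 10, and again above 1. Calls needed an adjusted p under 0.05 together with a change of over 1.5-fold. Each standard error follows from the fold change and the F statistic of its gene. With 2 samples against 2, an exact permutation test cannot go below 0.333, so none was run on the sums. DESeq2 1.42.0 and limma 3.58.1 (voom) were alternatives, as were other scalings, filters, thresholds, exon-length offsets and leaving out each library. The scripts were tested on simulated data. Gene positions and exon lengths were taken from the GENCODE annotation of mm10, matched by symbol, and promoters from RefSeq.

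All 39 genes are named. CPM per library is given for the 28 with a mean CPM above 10, for the leading gene of each segment, and for those whose INK128 libraries did not both lie below both controls (counts for 3 of them). Up to 3 of the most abundant genes of each further list and the leading marker of each cell type are named, and some of these genes are not reported here. The members and lists were chosen with earlier results of these data known. No gene set test was made. Of 89 further nephron genes listed, 88 were matched.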

Additional observations from a re-analysis of the deposited data

How the results depend on the processing

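No paired analysis was possible because the groups share only replicate number 1. All 4 library numbers are names, and nothing states a shared litter or day.

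Of the 28 nephron genes tested, 12 were called lower by edgeR. The count was 27 with DESeq2, 0 with limma voom, 0 of 36 with a mean CPM above 1, 19 of 25 with CPM above 10 in at least 2 libraries, 3 of 4 with CPM above 10 in all 4 libraries, 32 of 39 with no filter, 0 with offsets for exon length, 25 at an adjusted p below 0.1 and 0 at an adjusted p below 0.01. Leaving out each library gave 0 to 27, with 0 without either INK128 library and 27 without either control. Over all genes the calls moved alike, from 374 higher and 375 lower to 1595 and 1772 with DESeq2, 728 and 834, 803 and 717, and 1152 and 1953 under those filters in turn, 1540 and 1591 at an adjusted p below 0.1, and to 0 under the mean CPM above 1, voom, length offsets, 0.01 and without either INK128 library. Without control replicate 1 they were 2664 and 2723, and without control replicate 3, 2493 and 2518. Scaling by library totals alone gave 290 and 580 and shifted the median of all genes to −0.15, and upper quartile scaling gave 567 and 396, with 13 members called under each. Voom left 3979 genes, the length offsets 3238, and leaving out INK128 replicate 1 or 2 left 1525 or 1338 genes with an unadjusted p under 0.05. The cause of these moves was not tested.

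The median log2 fold change of −4.09 was −2.06 over the 4 genes with CPM above 10 in all 4 libraries, and ran from −4.79 to −2.92 without each library. The summed distal tubule difference of −2.88 (log2) ran from −3.96 to −2.27 without each library, that of the proximal tubule (−3.13) from −3.56 to −2.51 and that of the thick limb (−5.05) from −5.84 to −3.16. The separation of the groups and the sum over all genes without each library, and the marker sums without the leading marker, were added after seeing the data. None of the 28 nephron genes of the main test changed direction under any alternative, and 0 of the 39 were called higher in each. Depth limits Cldn16 and Slc22a7, which had few counts in every library, and the INK128 level of Slc12a1. Pvalb had 1 count in INK128 replicate 1 and 8 in control replicate 1. Its libraries within each group also differed beyond counting error (95% intervals of the ratio from 3.51 to 880 with INK128 and 2.08 to 11.2 in controls). INK128 counts were also low for Slc5a12 (7 and 7), Slc6a19 (5 and 10), Folh1 (6 and 17) and Umod (7 and 11). This limits the size of their fold changes.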
